A study of Mus musculus with 10 samples.

Results

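Diacylglycerol kinases (DGKs) are the enzymes that convert the membrane lipid diacylglycerol into phosphatidic acid. The 6 genes described here, Dgkk, Dgka, Dgkz, Dgkd, Dgke and Dgkh, were chosen by name with earlier results of these data known, and every probe set annotated to 1 of these symbols alone was taken. That gave 14 probe sets out of 45037 on the array once control probe sets were left out. Since the values on these arrays guided the choice, the levels and differences of the 6 genes are given as a description, with standard errors (SE) and without p-values.

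In a T cell, diacylglycerol is released by phospholipase C when the antigen receptor is engaged, and it recruits the Ras activator RasGRP1 and protein kinase C theta to the membrane. DGKs end that signal. DGK alpha (Dgka) and DGK zeta (Dgkz) are the forms best known to restrain receptor signalling in T cells, and both are linked to anergy, a state of muted response. DGK delta, eta and kappa (Dgkd, Dgkh, Dgkk) form the type II class, which carries a pleckstrin homology domain. DGK epsilon (Dgke) prefers diacylglycerol with an arachidonoyl chain. DGK kappa is known mainly from neurons, where its messenger RNA is bound by the fragile X protein.

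The arrays were hybridised with RNA of CD4+ T cells sorted from the spleen of DEREG mice, or mice read from the abbreviated descriptions as DEREG/Scurfy, on a Balb/c background. DEREG mice carry GFP under the Foxp3 promoter, so GFP+ marks cells in which that promoter is active, and Scurfy mice carry a mutated Foxp3. All cells, controls included, were activated with antibodies to CD3 and CD28 and infected with a retrovirus that marks infected cells by surface NGFR, by which they were then purified. The virus held Foxp3 or, as the mock control, no insert. The 5 groups of 2 arrays are GFP- DEREG cells with the empty virus (Tconv mock), GFP- DEREG cells with the Foxp3 virus (Tconv Foxp3), GFP+ DEREG cells with the empty virus (Treg mock), and GFP+ DEREG/Scurfy cells with the empty virus (scurfy mock) or the Foxp3 virus (scurfy Foxp3). The sources used here give neither the age of the mice nor whether animals were pooled, and nothing says that the 2 arrays of a group came from separate cultures, so spread between them may be technical. Because the arrays profile sorted bulk cells, fewer cells of a type and less RNA per cell cannot be told apart.

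Median intensity per array ran from 18.8 to 36.3. The 7 T cell markers with a probe set were above the array median on every array. The Foxp3 probe set was highest in Treg mock, but it was not higher in the arrays labelled Foxp3 than in their mock counterparts, at 18.0 and 18.9 against 53.9 and 35.9 in Tconv and 948 and 691 against 1188 and 1114 in scurfy cells. Where that probe set lies relative to the Foxp3 carried by the virus is unknown here, so it does not check the label. The 6 listed Treg markers, Foxp3 among them, did not rise as a set with the label either. In Tconv Foxp3 against Tconv mock 2 of 6 were higher, with a median of -0.18 against 0.26 for all probe sets. In scurfy Foxp3 against scurfy mock 3 of 6 were higher, with a median of -0.0055 against -0.0393. Limma called 0 of the 6 in either comparison. These groups are called Foxp3 as labelled. Scurfy Foxp3 array 1 correlated better with scurfy mock array 2 (r = 0.972 over probe sets) than with its own replicate (r = 0.950). The 2 scurfy mock arrays correlated with each other at r = 0.922, the lowest of the 5 groups, and scurfy mock array 1 reached at most 0.927 with any array, which touches each scurfy mock value below. B cell markers varied across arrays, with a summed intensity of 6 probe sets of 66.1 and 94.2 in Tconv mock, 905 and 1157 in Tconv Foxp3, 181 and 2903 in Treg mock, 113 and 1557 in scurfy mock and 3816 and 6547 in scurfy Foxp3. None of the 6 was called in any comparison, and their part in the results below was not tested.

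The 2 promoter windows printed here belong to Dgkk, the gene with the widest range over the arrays, and to Dgkz, the T cell isoform whose values also differed between groups. They are RefSeq windows of 300 bases around an annotated start on build GRCm38.p6, written 5′ to 3′ on the gene's strand with CG dinucleotides in capitals. The Dgkk window is chrX:6779056-6779355 on the plus strand, and the Dgkz window, 1 of 2 listed for that gene, is chr2:91963514-91963813 on the minus strand.
Dgkk: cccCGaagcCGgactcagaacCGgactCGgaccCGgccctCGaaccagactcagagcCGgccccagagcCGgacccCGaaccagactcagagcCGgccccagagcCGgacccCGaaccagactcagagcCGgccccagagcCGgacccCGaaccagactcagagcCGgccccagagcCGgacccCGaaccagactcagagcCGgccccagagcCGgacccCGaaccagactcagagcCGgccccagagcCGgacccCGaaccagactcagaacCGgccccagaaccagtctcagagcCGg
Dgkz: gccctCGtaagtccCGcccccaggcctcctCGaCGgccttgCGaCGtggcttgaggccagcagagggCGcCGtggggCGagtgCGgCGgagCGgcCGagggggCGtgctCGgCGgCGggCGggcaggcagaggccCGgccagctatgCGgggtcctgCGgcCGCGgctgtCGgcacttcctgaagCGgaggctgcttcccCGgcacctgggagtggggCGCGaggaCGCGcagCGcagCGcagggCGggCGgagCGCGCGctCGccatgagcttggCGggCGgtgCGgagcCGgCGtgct
The Dgkk window is a tandem repeat. With a step of 36 bases, 92.4% of its bases equalled the base 1 step further on, and the unit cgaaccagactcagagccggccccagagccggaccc occurred in 6 exact copies. Of 32851 RefSeq windows of the same length, 0.0122% were at least as repetitive at any step from 6 to 100 bases, and the Dgkz window reached 40.9%. Human DGK kappa is known for a run of short repeats rich in glutamate and proline near its start. The Dgkk window held 26 CG dinucleotides, a number that 16.9% of all windows reach. Most of them lie in copies of the repeated unit, so the count largely reflects the repeat. The printed Dgkz window held 43, which 2.61% reach, while the other Dgkz window held 10, which 43.5% reach. GTAAACA, a core sequence bound by forkhead factors, was searched on both strands and was in none of the 12 windows of the 6 genes, against 3.65% of all windows. GGAAA, the core bound by NFAT factors, was searched the same way and was in 6 of the 12 windows, against 61.3% of all windows. Neither printed window was among them, but the other Dgkz window was. No methylation or binding was measured on these samples.

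Dgkk (probe set 1442865_at, Entrez gene 331374, chrX:6779306-6948363) separated the starting cells. Its intensity was 785 and 1328 in Tconv mock and 343 and 183 in Tconv Foxp3. It was 0.548 and 7.45 in Treg mock, 0.139 and 28.3 in scurfy mock, and 6.24 and 4.35 in scurfy Foxp3. All 4 arrays from GFP- cells, with a lowest value of 183, were above all 6 arrays from GFP+ cells, with a highest value of 28.3. Among the 26094 probe sets kept after the filter on low values, 2.06% showed that separation with the GFP- arrays above. That share is printed as background only, because the separation was known when Dgkk was chosen.

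Within each array, Dgkk ranked between the 76.2nd and the 95.5th percentile of all probe sets in GFP- cells, and between the 0.46th and the 52.4th in GFP+ cells. It exceeded the array median on 5 arrays, namely the 4 from GFP- cells and scurfy mock array 2, so it passed the filter through the cells in which it is high. On the log2 scale after adding 16, which understates differences near background, the group means were 10.02 (SD 0.53) in Tconv mock, 8.06 (SD 0.60) in Tconv Foxp3, 4.30 (SD 0.36) in Treg mock, 4.74 (SD 1.03) in scurfy mock and 4.41 (SD 0.09) in scurfy Foxp3, each with n = 2. The order of the groups was therefore Tconv mock, Tconv Foxp3 and then the 3 GFP+ groups, whose values overlapped each other.

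**Figure D1:**
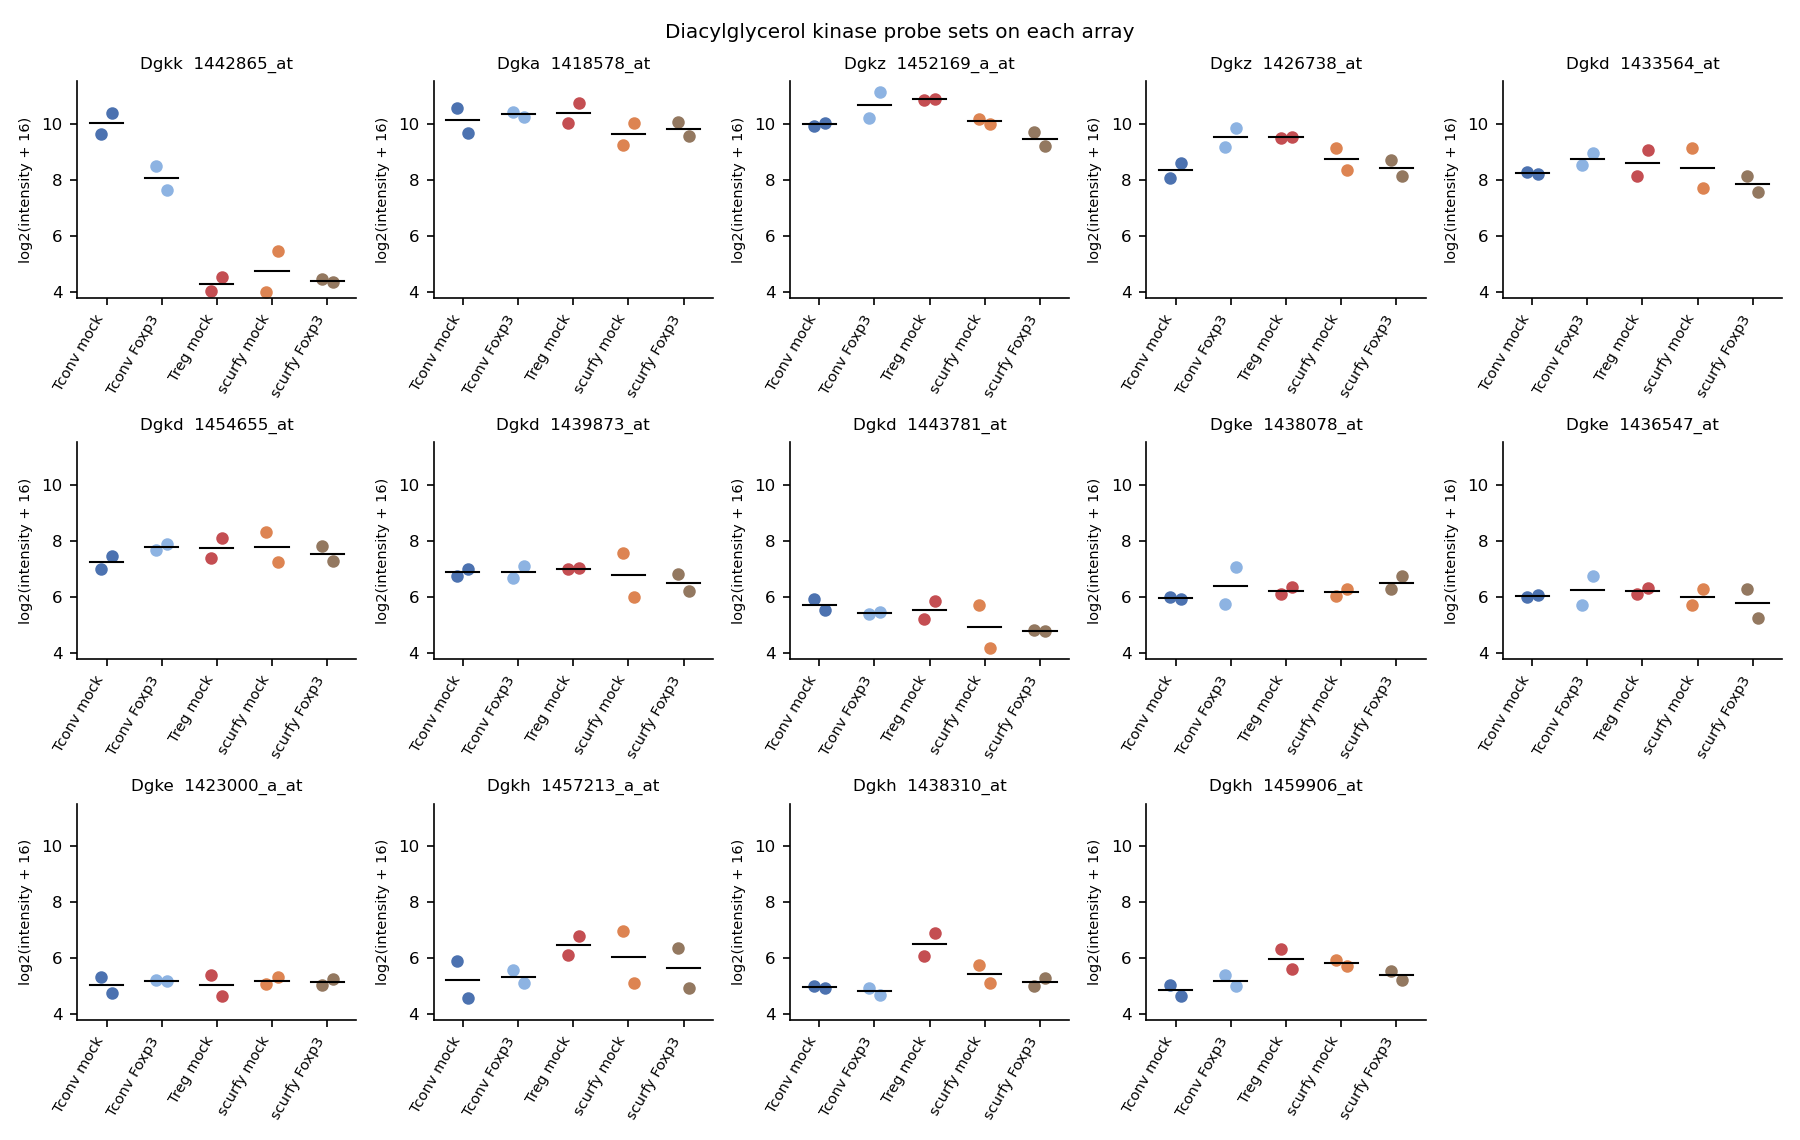
Each panel shows 1 DGK probe set, with log2(intensity + 16) on the vertical axis and the 5 groups on the horizontal axis. Points are single arrays and bars are means of 2 arrays. Dgkk has a mean of 10.02 in Tconv mock and between 4.30 and 4.74 in the 3 GFP+ groups, while the other 13 probe sets span at most 5.27-fold between their lowest and highest array after 16 is added.

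Against Tconv mock, Dgkk was lower by a log2 difference of -5.72 (SE 0.50) in Treg mock and -5.28 (SE 0.50) in scurfy mock. These comparisons share the Tconv mock arrays. Scurfy Foxp3 and Tconv Foxp3, which share none of those arrays, differed by -3.65 (SE 0.50). Scurfy mock and Treg mock stood 0.44 apart and scurfy Foxp3 and Treg mock 0.11 apart. These groups all read near background, where the added constant draws values together, so the small gaps do not measure how alike their levels were. The size of the differences between GFP+ and GFP- cells also depends on the added constant, because the GFP+ values lie at background. The Treg difference was -8.14 with a constant of 1 and -4.00 with 64, and the difference between the Foxp3-labelled groups was -5.34 and -2.19.

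Within Tconv, Dgkk was lower in both Foxp3-labelled arrays (343 and 183) than in both mock arrays (785 and 1328), by -1.96 (SE 0.50). That difference ran from -2.38 to -1.53 when any 1 array was left out. Limma did not call Dgkk in this comparison, where 10.9% of all probe sets were lower without overlap. Within scurfy cells the difference was -0.33 (SE 0.50), at values where all 4 arrays read 28.3 or less, and it changed sign to 0.40 without scurfy mock array 2. B cell marker sums were 905 and 1157 in Tconv Foxp3 and 94.2 and 66.1 in Tconv mock, and their part in the Tconv difference was not tested.

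Dgkk lies on chromosome X, and the genes beside it did not show its pattern. Nudt10, among the 3 nearest protein-coding genes on 1 side, had no probe set with a single symbol. Bmp15 and Shroom4 on that side, and Ccnb3 and Akap4 on the other, were covered by 8 probe sets that read between 0.187 and 10.5 on all 10 arrays, below the lowest array median of 18.8, and none passed the filter. Clcn5, which encodes a chloride-proton exchanger, is the next gene and was measured well. Its probe set 1420295_x_at read 249 and 235 in Tconv mock, 263 and 200 in Tconv Foxp3, 169 and 553 in Treg mock, 672 and 443 in scurfy mock and 675 and 509 in scurfy Foxp3. Clcn5 was thus higher, not lower, in the scurfy groups, with differences of 1.13 (SE 0.48, limma adjusted p = 0.378) for scurfy mock against Tconv mock and 1.30 (SE 0.48, limma adjusted p = 0.255) for scurfy Foxp3 against Tconv Foxp3, neither of which passed the threshold. Xist, which is transcribed from the inactive X of females, read from 7.59 to 46.4 and did not pass the filter, and the Y-linked Eif2s3y read from 736 to 1571 on the 10 arrays.

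The genes most like Dgkk over the 10 arrays, out of 11342 compared by Pearson's r of log2(intensity + 16), were Bola1 (r = 0.971), a mitochondrial iron-sulfur cluster protein, Qdpr (r = 0.952), which recycles tetrahydrobiopterin, and Idh2 (r = 0.949), the mitochondrial NADP-dependent isocitrate dehydrogenase. The arrays fall into a high and a low set for Dgkk, so r mostly reflects that step. Idh2 read 344 and 369 in Tconv mock, 325 and 341 in Tconv Foxp3, and from 158 to 186 on the 6 GFP+ arrays. Bola1 read 128 and 124 in Tconv mock, 104 and 87.9 in Tconv Foxp3, and from 50.9 to 72.8 on the GFP+ arrays. In both genes, and in Qdpr, all GFP- arrays were above all GFP+ arrays, in a much narrower range than Dgkk. These genes were picked for likeness to Dgkk over the same arrays, so that separation is largely set by the choice. Among all probe sets kept, 2.06% showed it.

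**Figure D2:**
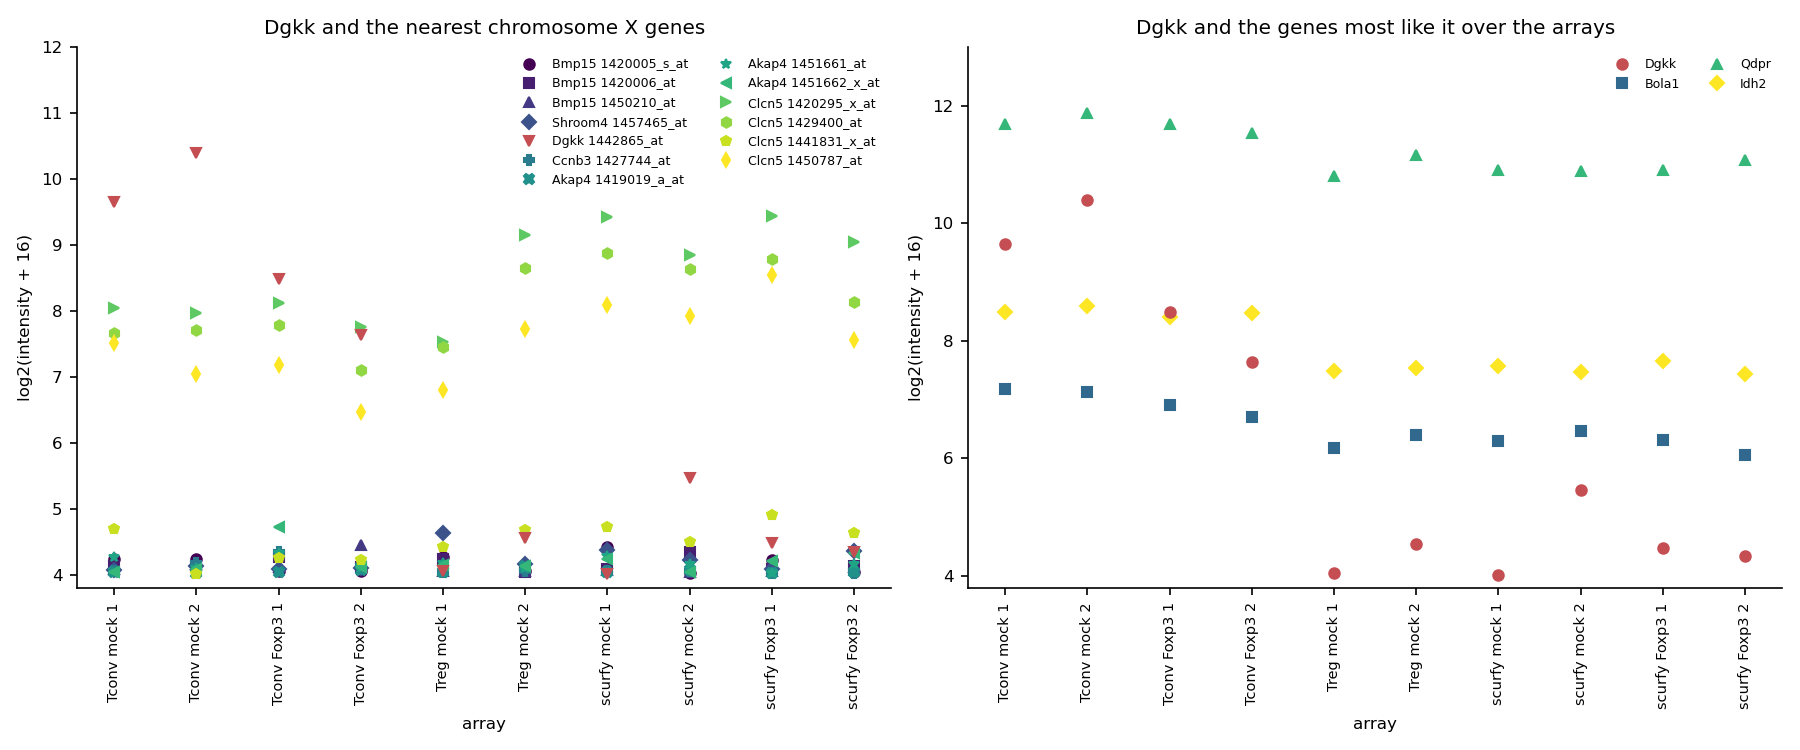
Points give log2(intensity + 16) on each of the 10 arrays, for Dgkk with its nearest chromosome X neighbours (left) and with the 3 genes of highest correlation (right). The 8 probe sets of Bmp15, Shroom4, Ccnb3 and Akap4 stay at or below an intensity of 10.5 on arrays where Dgkk reads up to 1328, and Clcn5 is higher in the scurfy groups.

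Dgka, the calcium-responsive type I kinase of T cells (probe set 1418578_at, Entrez gene 13139, chr10:128720131-128745084), was well expressed everywhere, between the 89.0th and 96.0th percentile of each array. It read 1482 and 805 in Tconv mock, 1365 and 1202 in Tconv Foxp3, 1022 and 1702 in Treg mock, 594 and 1029 in scurfy mock and 1050 and 747 in scurfy Foxp3. The replicates of Tconv mock, Treg mock and scurfy mock were far apart, and most groups overlapped. The differences against Tconv mock were 0.27 (SE 0.42) in Treg mock, -0.47 (SE 0.42) in scurfy mock and 0.23 (SE 0.42) in Tconv Foxp3, and each changed sign or came near 0 when 1 array was left out (-0.17 to 0.70, -0.91 to -0.04 and -0.21 to 0.66). Scurfy Foxp3 lay below Tconv Foxp3 without overlap, at -0.52 (SE 0.42), as did 24.5% of all probe sets. The genes most like Dgka were Airn (r = 0.939), Osbpl9 (r = 0.935) and the Y-linked Kdm5d (r = 0.930), over the same 10 arrays.

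Dgkz, the type IV kinase with ankyrin repeats (Entrez gene 104418, chr2:91932822-91976443), had 2 probe sets, both highest in Treg mock and Tconv Foxp3. Probe set 1452169_a_at read 961 and 1034 in Tconv mock, 1157 and 2220 in Tconv Foxp3, 1827 and 1887 in Treg mock, 1135 and 997 in scurfy mock and 812 and 572 in scurfy Foxp3. Probe set 1426738_at read 255 and 368 in Tconv mock, 560 and 911 in Tconv Foxp3, 699 and 725 in Treg mock, 539 and 307 in scurfy mock and 398 and 267 in scurfy Foxp3. In both, Treg mock and Tconv Foxp3 lay above Tconv mock without overlap, as did 39.9% and 45.9% of all probe sets, and both scurfy groups lay below Treg mock. The probe sets varied together, with r = 0.889 over 10 arrays.

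Treg mock exceeded Tconv mock in Dgkz by 0.89 (SE 0.35) and 1.17 (SE 0.38) on the 2 probe sets. The corresponding values for Tconv Foxp3 were 0.68 (SE 0.35) and 1.18 (SE 0.38), which is -0.21 and 0.01 from Treg mock. On 1452169_a_at the Tconv Foxp3 value rests on array 2: array 1 (1157) was near Tconv mock, and the difference was 0.21 without array 2 and 1.14 without array 1. Scurfy mock was on average nearer to Tconv mock, at 0.09 (SE 0.35, with a sign that turned to as low as -0.22 under other scalings) and 0.39 (SE 0.38). On 1426738_at, where the scurfy mock arrays read 539 and 307, that difference ran from 0.002 to 0.78 with 1 array left out. Scurfy mock was below Treg mock by 0.79 and 0.78 on the 2 probe sets. Scurfy Foxp3 was lower still relative to Treg mock, at -1.42 and -1.09. The Foxp3-labelled arrays therefore lay above mock in Tconv, and in scurfy cells they lay below mock on 1 probe set (-0.63, SE 0.35) and overlapped mock on the other (-0.31, SE 0.38). The difference of those effects was -1.31 (SE 0.49) and -1.49 (SE 0.54). Of all probe sets, 5.15% moved opposite ways without overlap, as the first Dgkz probe set did. All probe sets together had a median of 0.26 in each of the 2 comparisons with Tconv mock named first and -0.31 in the difference of effects. After quantile normalization the Treg differences were 0.82 and 0.96 and those of Tconv Foxp3 were 0.40 and 0.82. With a common 75th percentile they were 0.54 and 0.84 for Treg mock and 0.36 and 0.87 for Tconv Foxp3.

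Dgkz and Dgkk thus did not follow 1 pattern. For Dgkz, Tconv Foxp3 array 2 read at or above Treg mock on both probe sets, while array 1 read below Treg mock on both. For Dgkk, both Tconv Foxp3 arrays (343 and 183) were above both Treg mock arrays (0.548 and 7.45), which lie at background. Scurfy mock was near Tconv mock for Dgkz and near Treg for Dgkk. The genes most like Dgkz were Tbca (r = 0.955), a tubulin folding cofactor, Bclaf1 (r = 0.936) and Cnnm3 (r = 0.936), a magnesium transport protein.

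Dgkh and Dgkd are the type II relatives of Dgkk. Dgkh (Entrez gene 380921, chr14:78559349-78732729) had 3 probe sets, of which none exceeded the array median on more than 6 arrays. Probe set 1438310_at read 16.1 and 14.4 in Tconv mock, 14.5 and 9.94 in Tconv Foxp3, 51.7 and 103 in Treg mock, 37.5 and 18.8 in scurfy mock and 15.9 and 23.4 in scurfy Foxp3. The Treg mock arrays were the highest, and the ranges of the GFP+ arrays (15.9 to 103) and GFP- arrays (9.94 to 16.1) met at their edges. Probe set 1459906_at read 17.0 and 9.05 in Tconv mock and 64.9 and 33.4 in Treg mock, and probe set 1457213_a_at read 42.9 and 7.72 in Tconv mock and 53.4 and 95.1 in Treg mock. On all 3, both Treg mock arrays exceeded both Tconv mock arrays, by 1.52 (SE 0.35), 1.14 (SE 0.34) and 1.23 (SE 0.68), and 39.9% of all probe sets were higher without overlap in that comparison. With 1 array left out, 1457213_a_at ran from 0.58 (without Tconv mock array 2) to 1.89 (without Tconv mock array 1). Probe set 1438310_at exceeded the array median on 4 GFP+ arrays and 0 GFP- arrays, so it passed the filter through the cells in which it is high, and the other 2 did so on 4 GFP+ arrays each and on 2 (1457213_a_at) and 1 (1459906_at) GFP- arrays. The values lie near background, where the constant sets the size. With a constant of 1 the difference for 1438310_at was 2.19, and with 64 it was 0.81.

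In scurfy mock the 3 Dgkh probe sets exceeded Tconv mock by 0.47, 0.97 and 0.82, with replicates of 1457213_a_at at 109 and 18.6. Against scurfy mock, scurfy Foxp3 stood between -0.43 and -0.28. Without scurfy mock array 1 the sign turned on 1457213_a_at (0.52) and 1438310_at (0.03), and without scurfy Foxp3 array 2 on 1457213_a_at (0.31). The 3 probe sets correlated with each other at r from 0.602 to 0.657.

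Dgkd (Entrez gene 227333, chr1:87853264-87945177) had 4 probe sets and no common direction. Probe set 1433564_at read 294 and 280 in Tconv mock, 349 and 480 in Tconv Foxp3, 264 and 514 in Treg mock, 539 and 192 in scurfy mock and 264 and 173 in scurfy Foxp3. The scurfy mock arrays alone spanned nearly the whole range of the gene. Against Tconv mock, the 4 probe sets ran from -0.17 to 0.51 in Treg mock, from -0.78 to 0.54 in scurfy mock and from -0.30 to 0.55 in Tconv Foxp3. In scurfy Foxp3 all 4 were below scurfy mock (-0.56 to -0.14) and Tconv Foxp3 (-0.89 to -0.23). The sign against scurfy mock turned on all 4 probe sets without scurfy mock array 1, for example to 0.15 on 1433564_at.

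Dgke (Entrez gene 56077, chr11:89035179-89060795) had 3 probe sets and small differences. Against Tconv mock they ran from -0.02 to 0.27 in Treg mock, from -0.03 to 0.21 in scurfy mock and from 0.15 to 0.45 in Tconv Foxp3, with SE from 0.33 to 0.44. Probe set 1438078_at read 47.3 and 45.1 in Tconv mock and 37.3 and 120 in Tconv Foxp3, a gap between replicates larger than any difference between groups. Probe set 1423000_a_at exceeded the array median on 3 arrays and had a range of 1.66-fold after adding 16. The 3 probe sets did not vary together, with r from -0.23 to 0.33.

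**Figure D3:**
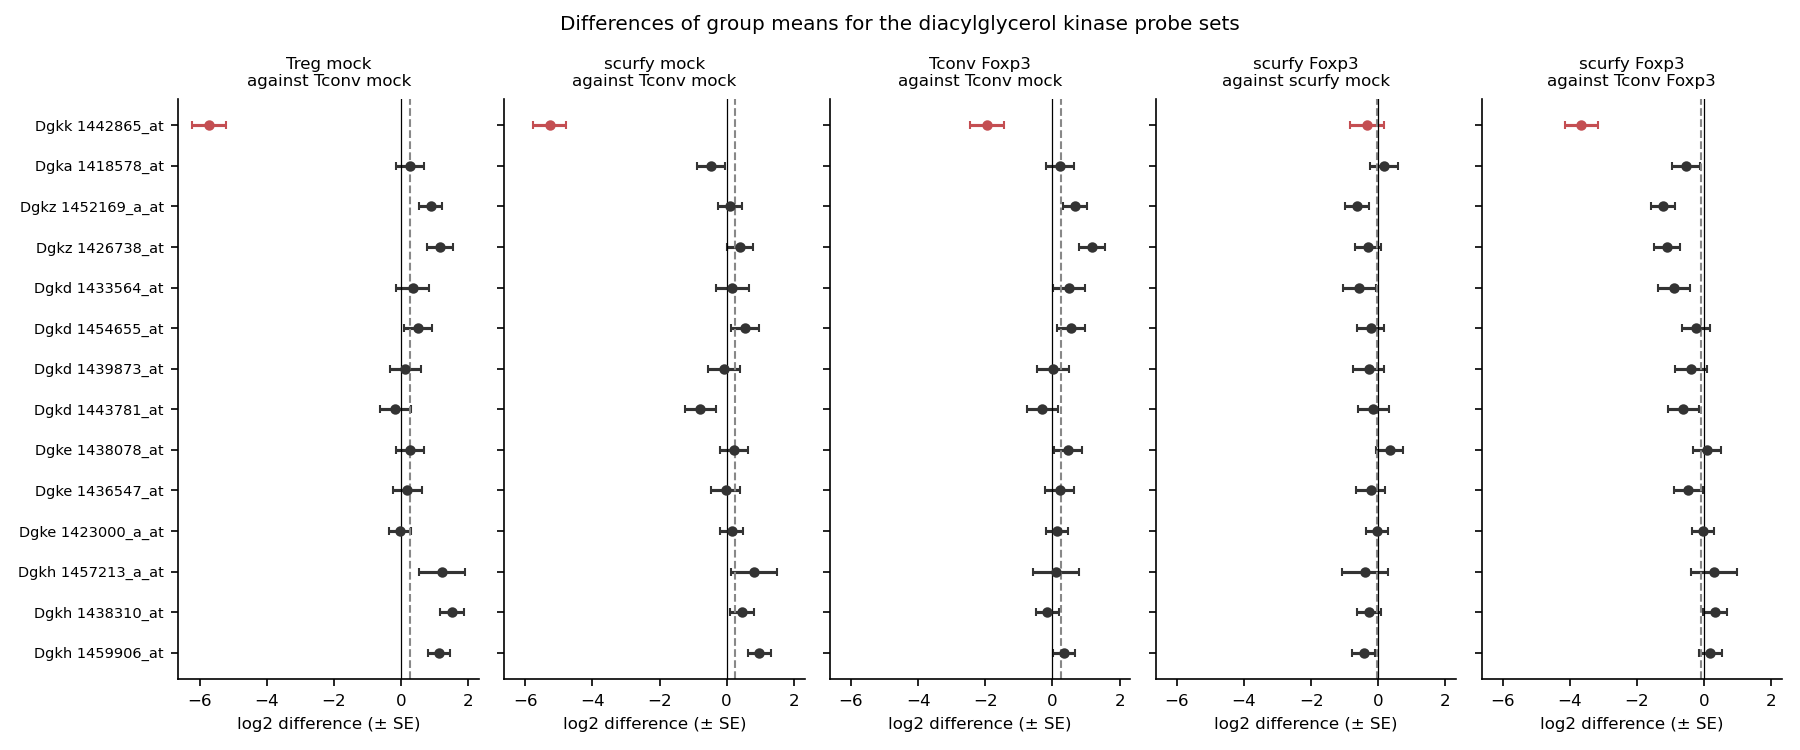
Points are log2 differences of group means for the 14 DGK probe sets in 5 comparisons, with bars of 1 SE from the limma fit, and the dashed line is the median of all 26094 probe sets. Dgkk (red) lies at -5.72, -5.28 and -3.65 where GFP+ and GFP- cells are compared, and no other probe set passes 1.52 in size.

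All 14 probe sets passed the filter on low values. In the limma fit over all probe sets, 1 of the 14 (Dgkk) was called lower in Treg mock against Tconv mock, where 0.153% of all probe sets were called lower, in scurfy mock against Tconv mock (0.0575%) and in scurfy Foxp3 against Tconv Foxp3 (0.295%), and the choice of Dgkk used those comparisons. The Dgkk call ended in all 3 with an added constant of 1, and in the comparison of the Foxp3 groups also without the filter and without any 1 of the 4 arrays compared. In either direction the shares called there were 1.08%, 0.326% and 1.15%. The other 13 were not called in any comparison. In Tconv Foxp3 against Tconv mock 0 of 14 were called, with 0.0192% of all probe sets called and 0.0115% called lower, and in scurfy Foxp3 against scurfy mock 0 of 14 and 0% of all. Counted by arrays that do not overlap, 7 of 14 were higher in Treg mock than Tconv mock, against 39.9% of all probe sets, and 1 was lower, against 13.4%. In scurfy mock against Tconv mock 3 were higher (37.7% of all) and 1 lower (11%). In Tconv Foxp3 against Tconv mock 4 were higher (45.9%) and 2 lower (10.9%). In scurfy Foxp3 against scurfy mock 0 were higher (13.2%) and 2 lower (10.1%), with a median of -0.28 against -0.04 for all probe sets. In scurfy Foxp3 against Tconv Foxp3 1 was higher (21%) and 6 lower (24.5%), with a median of -0.42 against -0.08. In that last comparison limma also called Tyrobp (3.49, SE 0.45, adjusted p = 0.0086), listed as an NK cell marker, higher in scurfy Foxp3. It called Fcer1g (2.18, SE 0.35, adjusted p = 0.0217), listed as a myeloid marker, higher there too. On both scurfy Foxp3 arrays, however, 3 of 4 NK cell markers and 7 of 8 myeloid markers with a probe set read below the array median. The part of Tyrobp and Fcer1g in the DGK values was not tested. Several of the 14 DGK probe sets share a gene and are not independent. Their counts are small and were not tested against the shares of all probe sets.

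Of 4 further DGK genes listed, Dgkb and Dgkg had no probe set with a single symbol. Dgki, the second type IV kinase, read 21.5 or less on all arrays and did not pass the filter. Dgkq, the theta form, read from 30.4 to 79.8 and differed by 0.34 (SE 0.36, limma adjusted p = 0.667) between Treg mock and Tconv mock, which did not pass the threshold.

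The rest of the diacylglycerol pathway was read from 4 lists covering the enzymes that make diacylglycerol, the proteins that bind it, the enzymes that remove or recycle it and phosphatidic acid, and regulators tied to anergy. Of 60 listed genes, counting the 4 further DGKs, 58 had a probe set and 49 passed the filter. In Treg mock against Tconv mock limma called 0 of the 49, against 1.08% of all probe sets, with 7 of them (14.3%) at an unadjusted p under 0.05, against 16.8% of all probe sets. The shares at that unadjusted p were 14.3% of listed genes and 12.6% of all probe sets in scurfy mock, and 8.16% and 13.1% in Tconv Foxp3, against Tconv mock. They were 10.2% and 4.25% in scurfy Foxp3 against scurfy mock and 28.6% and 14.5% in scurfy Foxp3 against Tconv Foxp3. Among phospholipases C, 0 of 9 tested genes were called in either direction in any comparison. Plcg1, the isoform coupled to the T cell receptor, read 1277 and 1762 in Tconv mock and 1508 and 2339 in Treg mock, a difference of 0.32 (SE 0.37, limma adjusted p = 0.694).

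Among 15 tested diacylglycerol-binding proteins, 0 were called in any comparison. Rasgrp1, the main Ras activator of T cells, read 794 and 609 in Tconv mock, 660 and 1497 in Treg mock, 2499 and 596 in scurfy mock, 741 and 883 in Tconv Foxp3 and 763 and 722 in scurfy Foxp3, with the 2 arrays of scurfy mock spanning all the others. Rasgrp3 differed by 1.49 (SE 0.47, limma adjusted p = 0.160) between Treg mock and Tconv mock, with 6.44 and 0.797 in Tconv mock and 18.5 and 70.4 in Treg mock. Rasgrp4 differed by -1.20 (SE 0.42, limma adjusted p = 0.195). Prkcq, protein kinase C theta, read 1390 and 830 in Tconv mock, 1746 and 1691 in Tconv Foxp3, 553 and 987 in Treg mock, 1868 and 763 in scurfy mock and 757 and 310 in scurfy Foxp3. It was lower in scurfy Foxp3 than in Tconv Foxp3 by -1.79 (SE 0.54, limma adjusted p = 0.164), which did not pass the threshold.

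Among 12 tested enzymes of phosphatidic acid and glycerolipids, 0 were called. Cds2, which turns phosphatidic acid into CDP-diacylglycerol, read 537 and 425 in Tconv mock and 996 and 1273 in Treg mock, a difference of 1.21 (SE 0.34, limma adjusted p = 0.125). Mgll, monoacylglycerol lipase, differed by -2.47 (SE 0.81, limma adjusted p = 0.176), with Tconv mock replicates at 30.0 and 364. Sgms1, a sphingomyelin synthase that releases diacylglycerol, differed by 1.93 (SE 0.51, limma adjusted p = 0.190) between scurfy mock and Tconv mock.

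Among 12 anergy-related regulators, limma called 1 gene in 1 comparison. Egr3, an early growth response factor tied to DGK expression in anergic cells, was lower in scurfy Foxp3 (70.8 and 175) than in Tconv Foxp3 (789 and 1530) by -3.12 (SE 0.54, limma adjusted p = 0.0304), where 1.15% of all probe sets were called. That call ended under quantile normalization, with an added constant of 1, without the filter and when any 1 of the 4 arrays compared was left out. Egr3 was also lower in scurfy mock (52.3 and 134) than in Tconv mock (520 and 435), by -2.28 (SE 0.54, limma adjusted p = 0.155). Scurfy mock array 1 was also low in Egr1 (107, against 1993 on array 2) and Egr2 (160, against 3185). In scurfy Foxp3, Egr1 (1962 and 2146) and Egr2 (2955 and 3817) did not share the size of the Egr3 drop. Tconv Foxp3 read 2058 and 2771 for Egr1 and 3945 and 4935 for Egr2. In scurfy Foxp3 against Tconv Foxp3, Dgka differed by -0.52 (SE 0.42) and the 2 Dgkz probe sets by -1.21 and -1.10. All 3 were lower without overlap of arrays, as were 24.5% of all probe sets. A link between Egr3 and the DGK values was not tested. Cblb, an E3 ubiquitin ligase of anergy, read 377 and 605 in Tconv mock and 1101 and 2287 in Tconv Foxp3, a difference of 1.70 (SE 0.39, limma adjusted p = 0.174). Dtx1 differed by 0.81 (SE 0.26, limma adjusted p = 0.174) between Treg mock and Tconv mock.

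**Figure D4:**
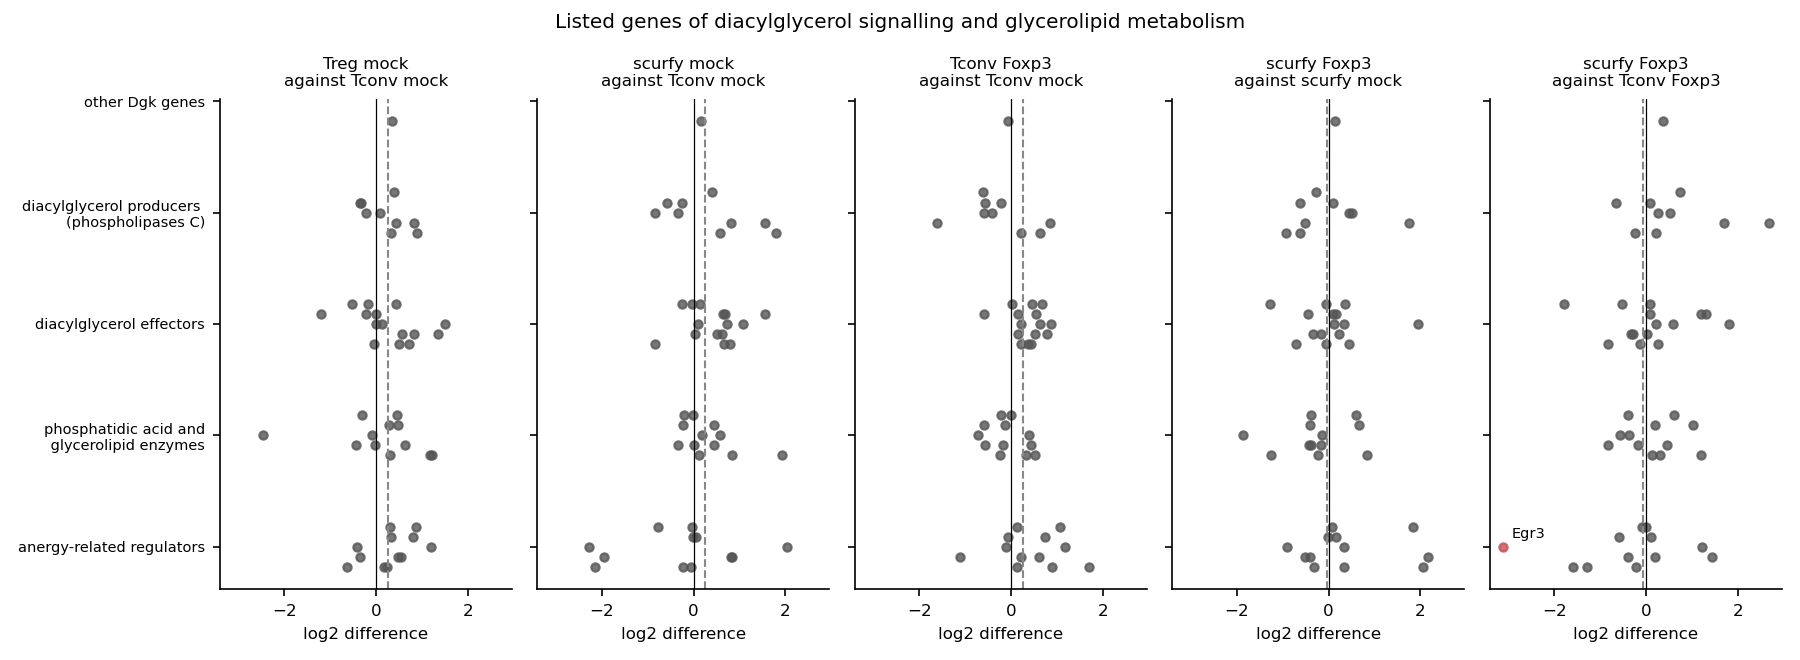
Each point is the log2 difference of 1 listed gene that passed the filter, in 5 comparisons, by list, and the dashed line is the median of all probe sets. Only Egr3 (red), at -3.12 in scurfy Foxp3 against Tconv Foxp3, was called by limma.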

How the data were processed

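RNA of 10 samples of activated, transduced CD4+ T cells was measured on Affymetrix mouse expression arrays. Per the submitters' processing notes, the authors used Affymetrix Expression Console. They deposited 1 linear intensity for each probe set in each sample, and how it was summarised or scaled is not stated. Array medians differed. Groups come from the sample titles, and symbols from GEO's platform annotation, in which 34945 probe sets had 1 symbol. Here log2(intensity + 16) was computed with no further normalization. The 26094 probe sets that exceeded the median of 2 or more arrays entered 1 limma fit (version 3.58.1, R 4.3.3, lmFit with eBayes, 5 group means, 5 residual degrees of freedom). p-values are two-sided, adjusted by Benjamini-Hochberg over all 26094, and called under 0.05. The fit was tested on simulated data. For a listed gene the probe set of highest mean was used. From each list any called gene and otherwise up to 3 with the smallest p in Treg mock against Tconv mock were named, and a few central genes or larger differences were added after their values were seen. The alternatives covered scaling, constant, filter, 1 probe set per gene, a replicate block and left-out arrays. The members and lists were chosen with earlier results of these data known. The number of arrays limits the precision.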

Additional observations from a re-analysis of the deposited data

Results flagged for a closer look

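For 1 of 14 DGK probe sets and 4 of 49 listed genes tested, the effect of the Foxp3 label went opposite ways in Tconv and scurfy cells. Arrays did not overlap in either. Of all probe sets, 5.15% showed that pattern, and the counts were not tested against that share. Dgkz (1452169_a_at) had a difference of effects of -1.31 (SE 0.49), given as a description. The other Dgkz probe set, 1426738_at, overlapped in scurfy cells. For none of the 4 listed genes did limma's test of the difference pass the threshold, at adjusted p from 0.624 to 0.67. Prkcq, protein kinase C theta, had -1.94 (SE 0.76). Sgms1, a sphingomyelin synthase, had -1.79 (SE 0.72). Plpp1, a lipid phosphate phosphatase, had 1.08 (SE 0.64), and Plcd3, a phospholipase C, had 0.86 (SE 0.45). In scurfy cells the gap was narrow for Prkcq, with 757 in scurfy Foxp3 array 1 and 763 in scurfy mock array 2. It was also narrow for Plcd3, with 27.9 in scurfy Foxp3 array 2 and 27.3 in scurfy mock array 1.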

How the results depend on the processing

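Dgkk kept its sign under all 18 alternatives in Treg mock, scurfy mock and Tconv Foxp3 against Tconv mock and in scurfy Foxp3 against Tconv Foxp3. Over the 84 DGK differences, 1464 values were recomputed, of which 1359 were labelled as the same and 105 as moved. That label does not track the sign, and small differences often changed sign. The difference of effects, for example, kept its sign in 12 of 18 settings for Dgka and in 12 of 17 for Dgkh 1438310_at. For Dgkz 1452169_a_at it kept its sign in all 18. Listed genes called in scurfy Foxp3 against Tconv Foxp3 numbered 1, and 0 with quantile normalization, with a constant of 1, without the filter and in the lowest case with 1 array left out (0 to 1). With 1 array left out the listed genes called ran from 0 to 2 in scurfy Foxp3 against scurfy mock and 0 to 5 in scurfy mock against Tconv mock, both highest without scurfy mock array 2, and from 0 to 1 in Treg mock, highest without Tconv mock array 1.

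Over all probe sets the calls were 281 in Treg mock, 85 in scurfy mock and 5 in Tconv Foxp3 against Tconv mock, 300 in scurfy Foxp3 against Tconv Foxp3 and 0 in scurfy Foxp3 against scurfy mock. With a constant of 1 they were 111, 53, 8, 130 and 1. Without the filter they were 96, 25 and 0 against Tconv mock and 110 between the Foxp3 groups. With a common 75th percentile, scurfy mock had 159, Tconv Foxp3 22, scurfy Foxp3 541 against Tconv Foxp3 and 5 against scurfy mock. A constant of 64 gave 16 in Tconv Foxp3 and 3 in scurfy Foxp3 against scurfy mock, 1 probe set per gene gave 127 in Treg mock, 10 in Tconv Foxp3 and 4 in scurfy Foxp3 against scurfy mock, and quantile normalization gave 1 in Tconv Foxp3. Without scurfy mock array 1 and scurfy Foxp3 array 2 together, an alternative chosen after seeing the data, the counts were 543, 51 and 3 against Tconv mock. With 1 array left out they ran from 15 (Tconv mock array 2) to 504 (scurfy mock array 2) in Treg mock, 15 (Tconv mock array 1) to 437 (scurfy mock array 2) in scurfy mock, 0 to 13 in Tconv Foxp3, 22 (Tconv Foxp3 array 2) to 516 (either scurfy mock array) in scurfy Foxp3 against Tconv Foxp3, 0 to 72 (scurfy mock array 2) in scurfy Foxp3 against scurfy mock, and 0 to 6 (scurfy mock array 2) in the difference of effects. The causes were not tested. Deviations of same-numbered arrays correlated from -0.14 to 0.15, over 0.1 in 2 of 10 pairs of groups. Those 2 were Tconv mock with Tconv Foxp3 (0.14) and with scurfy mock (0.15). With 2 arrays per group this cannot show whether same-numbered arrays shared a source, and the main fit did not pair them. The replicate block gave 3 calls in Tconv Foxp3 against Tconv mock, and the counts of the other comparisons stayed within 1.5 times. Values near background limit Dgkk in GFP+ cells and Dgkh.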
